A study of Mus musculus with 8 samples.

Results

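The genes described here are Gpr171, its neighbours P2ry12, P2ry13 and P2ry14, the further purine and pyrimidine receptors P2ry6, P2rx1, P2rx4 and P2rx7, and the ectonucleotidases Entpd1 and Nt5e. All 10 symbols were found among the 24411 gene names of the count table, and all 10 were among the 14679 genes tested. Gpr171 was chosen for the size of its difference between the groups of this study, and the others for their family with that result known. The difference between the groups is therefore a description for these 10 genes. No p-value is printed for any of them, and nothing is read from the counts of calls given below.

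RNA was measured by poly(A) sequencing of whole aortas from 8 mice, 1 library per mouse. All mice were ApoE(-/-), which develop atherosclerotic plaques, all carried caIKK2(+/+), a constitutively active form of the kinase IKK2 with a co-expressed EGFP that a loxP-flanked stop cassette keeps silent, and all ate a Western-type diet for 12 weeks. The 5 caIKK2EC mice were BMXCreERT2(+/-), in which tamoxifen activates a Cre recombinase in arterial endothelial cells, and the 3 Control mice were Cre-negative littermates, BMXCreERT2(-/-). Both groups were injected with tamoxifen at 1 mg per 20 g of body weight on 5 consecutive days. The mice were 18 or 19 weeks old and female, except Control 3, which was male, 19 weeks old and the only Control of that age. Whether the transgene was switched on early or late in disease is not given for these mice in the sources used here.

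Total counts were 23461655 to 30808502 per library. The column names carry the digit 7 for the 3 Controls and caIKK2EC 1 and the digit 8 for caIKK2EC 2 to 5. The headers do not say what this digit is, and it is read here as the sequencing lane. On that reading only 1 caIKK2EC library can be set against Controls within a lane. Control 3 stood apart in cell type markers. Its summed level of 6 smooth muscle markers was 36299 CPM (counts relative to the total of the library, with totals adjusted by the TMM method), against 18126 and 21617 in the other Controls and 9897 to 20750 in caIKK2EC. Its summed level of 8 macrophage markers was 1636 CPM, against 2817 and 2861 in the other Controls and 4062 to 4845 in caIKK2EC. Another library, caIKK2EC 1, stood apart in adipocyte markers. The 5 markers summed to 2360 CPM there, against 182 to 734 CPM in the other caIKK2EC libraries and 945 to 1374 CPM in Control. With lane as a covariate, the group difference rests on caIKK2EC 1, so lane and the tissue content of this library cannot be told apart. In RNA from a whole vessel, more cells of a type and more RNA per cell cannot be told apart.

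Cells release ATP, ADP, UTP and UDP when they are stressed, damaged or activated, and neighbouring cells sense these nucleotides. P2X receptors are ATP-gated cation channels, and P2Y receptors are coupled to G proteins. Ectonucleotidases on the cell surface end the signal: CD39, the product of Entpd1, takes ATP and ADP down to AMP, and CD73, the product of Nt5e, takes AMP to adenosine, which acts on its own receptors. In an artery the system links endothelium, smooth muscle, platelets and plaque macrophages. GPR171 is related in sequence to the P2Y receptors but has been reported to respond to a peptide and not to a nucleotide.

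Gpr171, P2ry14, P2ry13 and P2ry12 lie in this order on the minus strand of chromosome 3 (GRCm38, GENCODE release M21). Gpr171 spans 59096448 to 59101821, P2ry14 59113855 to 59153618, P2ry13 59207892 to 59210882 and P2ry12 59216272 to 59262871, a stretch of 166 kb in all. P2ry14 starts 12.0 kb beyond Gpr171, and P2ry13 and P2ry12 are 5.39 kb apart. All 4 lie inside Med12l, a gene of the Mediator kinase module family that runs on the plus strand from 59005825 to 59318682. The exons of Gpr171, P2ry13 and P2ry14 overlap no Med12l exon, and those of P2ry12 share 9 bases with one. P2rx7 (chromosome 5, 122643911 to 122691432, plus strand) and P2rx4 (122707544 to 122729738, plus strand) are also neighbours, with a gap of 16.1 kb. P2ry6 lies on chromosome 7 (100937630 to 100974649, minus strand), P2rx1 on chromosome 11 (72999103 to 73015200, plus strand), Entpd1 on chromosome 19 (40612366 to 40741602, plus strand) and Nt5e on chromosome 9 (88327197 to 88372092, plus strand). Reads were 50 nt long. None of the 50-base stretches of the Gpr171, P2ry12, P2ry13, P2ry6, P2rx1 and Entpd1 transcripts occurred in a transcript of another gene, and for the other genes the share was 1.63% or less.

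Promoter sequence is shown for the neighbours in both clusters, since these are the genes whose levels are compared side by side below. The RefSeq promoter table (GRCm38.p6) matched 8 of the 10 genes, all but Gpr171 and P2ry6. Each sequence runs 5′ to 3′ on the gene's strand from 250 bases before to 50 bases after the annotated start, and where several starts are annotated the most upstream is shown. Capitals mark matches on either strand to GAGGAA, a core bound by the myeloid factor PU.1, to TGANTCA, the AP-1 site, to TGTGGT, a RUNX site, or to the kappaB consensus.
P2ry14, chr3:59153443-59153742, minus strand: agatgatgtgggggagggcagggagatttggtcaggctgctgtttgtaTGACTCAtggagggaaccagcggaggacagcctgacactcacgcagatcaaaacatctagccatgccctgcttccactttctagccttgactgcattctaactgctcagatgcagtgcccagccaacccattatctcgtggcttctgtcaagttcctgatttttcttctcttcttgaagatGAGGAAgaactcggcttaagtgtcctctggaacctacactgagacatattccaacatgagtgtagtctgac
P2ry13, chr3:59210833-59211132, minus strand: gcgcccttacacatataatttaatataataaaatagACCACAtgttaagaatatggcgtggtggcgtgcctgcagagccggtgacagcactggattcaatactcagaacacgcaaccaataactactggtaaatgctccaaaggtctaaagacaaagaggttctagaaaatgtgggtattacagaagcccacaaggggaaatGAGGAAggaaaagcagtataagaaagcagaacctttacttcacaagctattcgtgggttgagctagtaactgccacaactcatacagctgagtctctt
P2ry12, chr3:59262936-59263235, minus strand: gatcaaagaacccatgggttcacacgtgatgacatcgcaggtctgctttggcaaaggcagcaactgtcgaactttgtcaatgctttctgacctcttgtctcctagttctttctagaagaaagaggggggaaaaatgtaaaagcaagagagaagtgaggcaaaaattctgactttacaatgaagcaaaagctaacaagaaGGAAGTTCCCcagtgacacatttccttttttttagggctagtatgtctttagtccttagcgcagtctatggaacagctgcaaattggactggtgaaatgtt
P2rx7, chr5:122643677-122643976, plus strand: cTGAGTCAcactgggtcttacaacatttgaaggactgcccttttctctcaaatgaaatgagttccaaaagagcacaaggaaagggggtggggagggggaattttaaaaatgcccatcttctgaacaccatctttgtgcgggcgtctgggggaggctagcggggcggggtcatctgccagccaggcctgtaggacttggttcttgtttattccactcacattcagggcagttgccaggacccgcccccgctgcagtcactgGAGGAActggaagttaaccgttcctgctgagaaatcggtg
P2rx4, chr5:122707294-122707593, plus strand: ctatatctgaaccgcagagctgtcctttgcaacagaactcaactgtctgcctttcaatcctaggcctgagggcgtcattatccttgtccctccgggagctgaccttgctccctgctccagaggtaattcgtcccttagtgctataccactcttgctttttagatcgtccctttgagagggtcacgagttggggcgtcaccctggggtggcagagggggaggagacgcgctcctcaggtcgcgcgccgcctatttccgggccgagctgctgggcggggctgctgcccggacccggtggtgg
The P2ry14 and P2rx7 sequences each held 1 GAGGAA and 1 TGANTCA, P2ry13 held 1 GAGGAA and 1 TGTGGT, P2ry12 held 1 kappaB match, and P2rx4 held none of these. Among all 32851 promoters of this length, 28.3% held GAGGAA, 7.81% TGANTCA, 16.8% TGTGGT and 8.46% the kappaB consensus. GAGGAAGT, a longer PU.1 site that contains GAGGAA and is found in 3.2% of promoters, was in none of the 5 but occurred once in the promoter of a second annotated P2rx7 start. These are matches of letters and say nothing of binding.

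Gpr171 had the largest difference of the 10 genes. It was at 2.00, 2.81 and 2.11 CPM in Control 1 to 3 (54, 76 and 46 counts) and at 10.5, 4.34, 7.56, 9.54 and 5.27 CPM in caIKK2EC 1 to 5 (271, 103, 177, 268 and 163 counts). All 5 caIKK2EC libraries lay above all 3 Controls, and the caIKK2EC libraries spread over a 2.43-fold range while the Controls lay within 1.41-fold. The Control mean was 2.31 ± 0.439 CPM (SD, n = 3), and the caIKK2EC mean was 7.45 ± 2.66 CPM (SD, n = 5). The log2 fold change in the edgeR fit was 1.69 (SE 0.34), a 3.22-fold difference, which ranked 62 from the top among the 14679 genes tested. It was 1.54 to 1.88 with any 1 library left out and 2.19 with lane as a covariate, since the lane 7 library caIKK2EC 1 had the highest level of all.

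**Figure D1:**
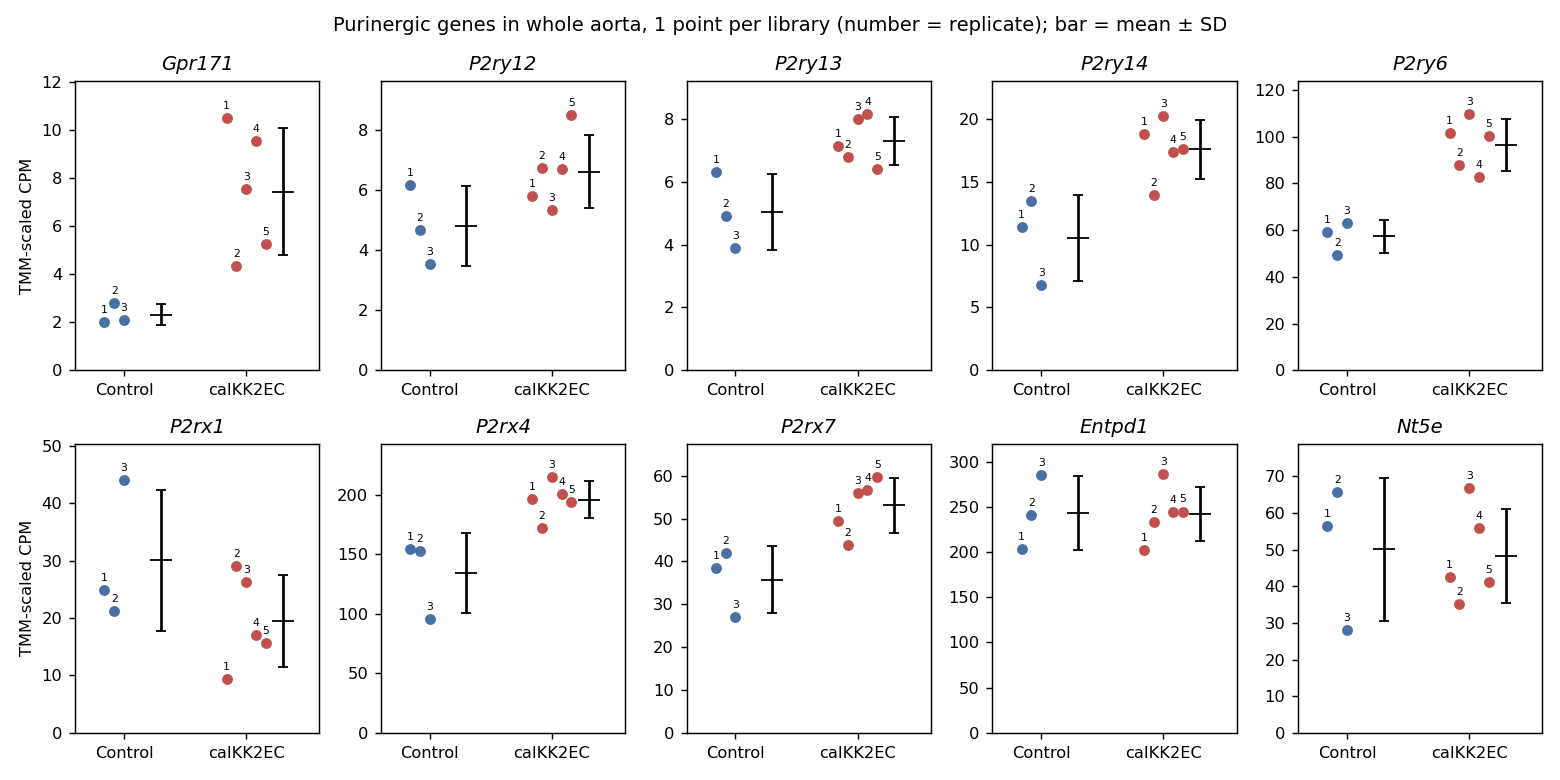
Level of each gene in TMM-scaled CPM on a linear axis that starts at 0, with 1 point per library labelled by its replicate number and the mean ± SD beside the points (3 Control, 5 caIKK2EC). Gpr171 runs from 2.00 to 2.81 CPM in Control and from 4.34 to 10.5 CPM in caIKK2EC. Entpd1 and Nt5e overlap between the groups.

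The other receptors of the chromosome 3 cluster differed less. P2ry14, the receptor for UDP-glucose and UDP, was at 11.4, 13.5 and 6.74 CPM in Control 1 to 3 and at 18.8, 13.9, 20.2, 17.4 and 17.6 CPM in caIKK2EC 1 to 5. The groups did not overlap, but caIKK2EC 2 lay only just above Control 2. The log2 fold change of P2ry14 was 0.73 (SE 0.22), and 0.50 without Control 3. P2ry13, an ADP receptor of myeloid cells, ran from 3.90 to 6.30 CPM in Control and from 6.40 to 8.15 CPM in caIKK2EC, again without overlap, though its closest libraries nearly touched. For P2ry13 the log2 fold change was 0.53 (SE 0.21). P2ry12, the ADP receptor of platelets and microglia that clopidogrel blocks, was at 6.19, 4.66 and 3.53 CPM in Control 1 to 3 and at 5.79, 6.74, 5.34, 6.69 and 8.51 CPM in caIKK2EC 1 to 5. Here the groups overlapped: 3 of 5 caIKK2EC libraries lay above all Controls. Its log2 fold change of 0.46 (SE 0.24) was 0.29 without Control 3, 0.71 without Control 1 and 0.27 with lane as a covariate.

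Med12l, inside which the cluster lies, had lower values in caIKK2EC, where the 4 receptor genes had higher ones. The Control mean was 4.81 ± 0.922 CPM (SD, n = 3) and the caIKK2EC mean 3.26 ± 0.631 CPM (SD, n = 5), with a log2 fold change of -0.56 (SE 0.24). It missed the threshold of edgeR's quasi-likelihood test (Benjamini-Hochberg adjusted p = 0.283). The groups overlapped: 4 of 5 caIKK2EC libraries lay below all Controls, and caIKK2EC 1, at 4.04 CPM, lay above Control 1, at 3.78 CPM.

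**Figure D2:**
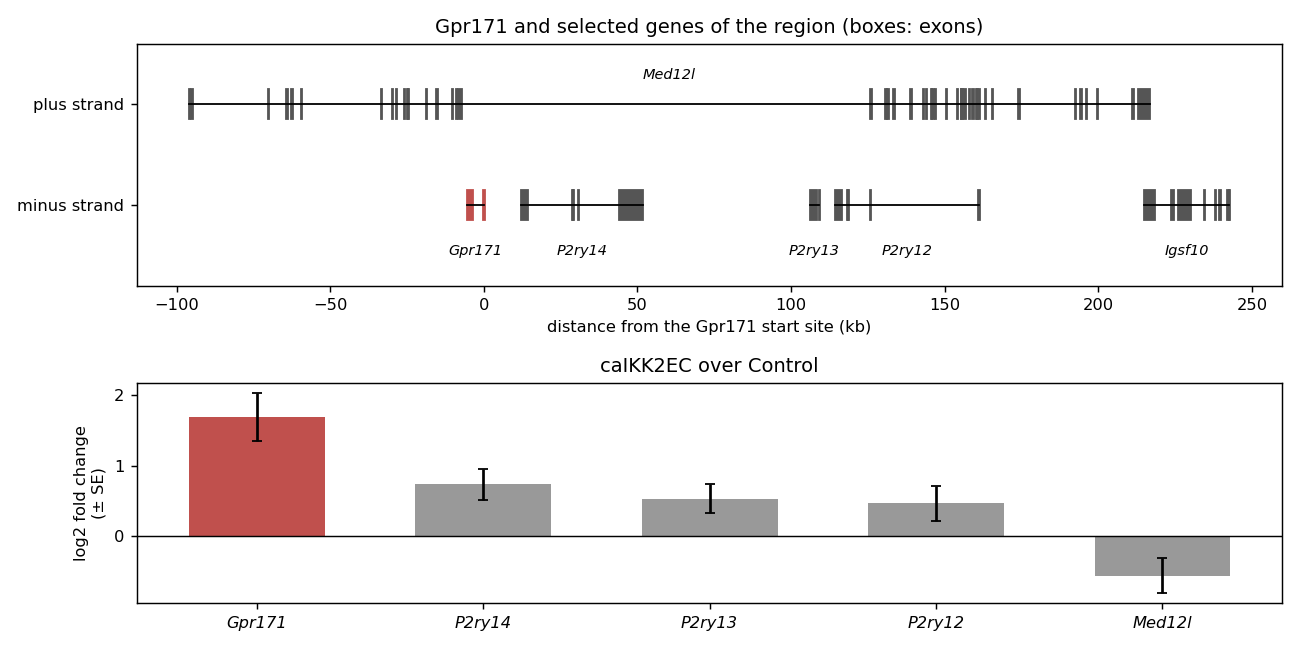
Top, exons (boxes) of Gpr171 and selected genes of the region by strand, in kb from the Gpr171 start site. Bottom, edgeR log2 fold change of caIKK2EC over Control ± SE, which is 1.69 for Gpr171, 0.73 for P2ry14, 0.53 for P2ry13, 0.46 for P2ry12 and -0.56 for Med12l, the gene on the other strand.

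P2ry6, the UDP receptor of macrophages and vascular cells, had the most even difference. It was at 59.2, 49.5 and 63.2 CPM in Control 1 to 3 and at 102, 87.8, 110, 82.6 and 100.5 CPM in caIKK2EC 1 to 5. All caIKK2EC libraries lay well above all Controls, and no library stood apart in either group. The log2 fold change was 0.75 (SE 0.13), a 1.68-fold difference, with values of 0.68 to 0.83 when any 1 library was left out and 0.83 with lane as a covariate. Control 3, which was lowest of the Controls for P2ry12, P2ry13, P2ry14, P2rx4 and P2rx7, was the highest Control for P2ry6.

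The channel genes P2rx4 and P2rx7 were higher in caIKK2EC and P2rx1 had a lower mean. P2rx4, an ATP-gated channel of macrophages that is also known as a flow sensor in endothelium, was at 154, 153 and 95.7 CPM in Control 1 to 3 and at 197, 172, 215, 201 and 194 CPM in caIKK2EC 1 to 5. Control 3 was far below the other Controls, and all caIKK2EC libraries lay above all 3. The log2 fold change was 0.54 (SE 0.17), and 0.35 without Control 3. P2rx7, whose channel opens at high ATP and drives the NLRP3 inflammasome, was at 38.4, 41.9 and 27.0 CPM in Control 1 to 3 and at 49.4, 43.7, 55.9, 56.6 and 59.7 CPM in caIKK2EC 1 to 5. It showed the same order, with Control 3 lowest and caIKK2EC 2 lowest of its group. On the log2 scale P2rx7 was higher by 0.57 (SE 0.16), and 0.40 without Control 3.

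P2rx1, the channel of contractile smooth muscle and platelets, was at 24.9, 21.2 and 44.0 CPM in Control 1 to 3 and at 9.36, 29.1, 26.2, 17.1 and 15.7 CPM in caIKK2EC 1 to 5. The groups overlapped, with 3 of 5 caIKK2EC libraries below all Controls, and both groups spread widely: 2.07-fold in Control and 3.11-fold in caIKK2EC. The log2 fold change of -0.63 (SE 0.35) was -0.24 without Control 3, the library with the highest value, and -1.68 with lane as a covariate, which rests on caIKK2EC 1, the library with the lowest.

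The surface enzymes had group means close to each other, with a wider error for Nt5e than for Entpd1. Entpd1 (CD39) was at 203, 241 and 285 CPM in Control 1 to 3 and at 202, 234, 286, 244 and 245 CPM in caIKK2EC 1 to 5. The groups covered the same range, and the log2 fold change was 0.00 (SE 0.15), a 0.997-fold difference. Nt5e (CD73) was at 56.5, 65.7 and 28.1 CPM in Control 1 to 3 and at 42.4, 35.3, 66.9, 56.1 and 41.3 CPM in caIKK2EC 1 to 5. Its log2 fold change was -0.05 (SE 0.28), and the sign depended on single libraries: -0.34 without Control 3 and 0.21 without Control 2. The SE of both genes leaves room for moderate differences either way.

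Compared per kb of exon, Entpd1 had the highest level in both groups, at 43.5 ± 7.36 CPM per kb (SD, n = 3) in Control and 43.4 ± 5.40 CPM per kb (SD, n = 5) in caIKK2EC, where its range overlapped that of P2ry6. P2ry6 and P2rx4 followed, at 19.8 ± 2.45 and 19.1 ± 4.76 CPM per kb in Control, where their ranges overlapped, and at 33.4 ± 3.81 and 27.8 ± 2.18 CPM per kb in caIKK2EC, where P2ry6 was the higher in 5 of 5 libraries but the ranges still overlapped. P2rx1 came next in Control, at 11.5 ± 4.66 CPM per kb, and lay below P2rx7 in caIKK2EC, at 7.43 ± 3.07 against 8.89 ± 1.07 CPM per kb with overlapping ranges. Nt5e was at 5.82 ± 2.28 and 5.63 ± 1.49 CPM per kb. The chromosome 3 receptors were the lowest. Gpr171 moved from 1.04 ± 0.197 CPM per kb in Control, below P2ry13 and P2ry12 in all 3 libraries, to 3.35 ± 1.19 CPM per kb in caIKK2EC, where its range overlapped that of P2ry13 (2.89 ± 0.299) and P2ry12 (2.60 ± 0.478). P2ry14 was at 0.953 ± 0.311 and 1.59 ± 0.212 CPM per kb, a level set against 11059 bases of annotated exon, the most of the 10 genes.

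Over the 10 genes, 7 had a positive and 3 a negative log2 fold change, with a median of 0.54 against -0.02 over all 14679 genes tested. The groups did not overlap in 6 genes, all with caIKK2EC above (7.01% of all genes tested) and 0 with caIKK2EC below (3.22%). The quasi-likelihood test of edgeR called 0 of the 10 and 0 of all genes at an adjusted p of 0.05 (0%). At an unadjusted p under 0.05 it had 6 of the 10 higher (9.66% of all genes) and 0 lower (7.47%). DESeq2 called 5 higher (4.55% of 14340 genes) and 0 lower (1.51%): Gpr171, P2ry6, P2ry14, P2rx4 and P2rx7. Which of them DESeq2 called changed with the libraries used: only Gpr171 and P2ry6 were called without Control 3 or without caIKK2EC 3, 4 or 5. The DESeq2 fit with replicate number as a block called 2 of the 10 genes against 5 without it. In that fit caIKK2EC 4 and 5 have no Control of their number and add nothing to the group difference. Because the genes were chosen with this contrast known, nothing is read from these counts or from which calls stayed.

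**Figure D3:**
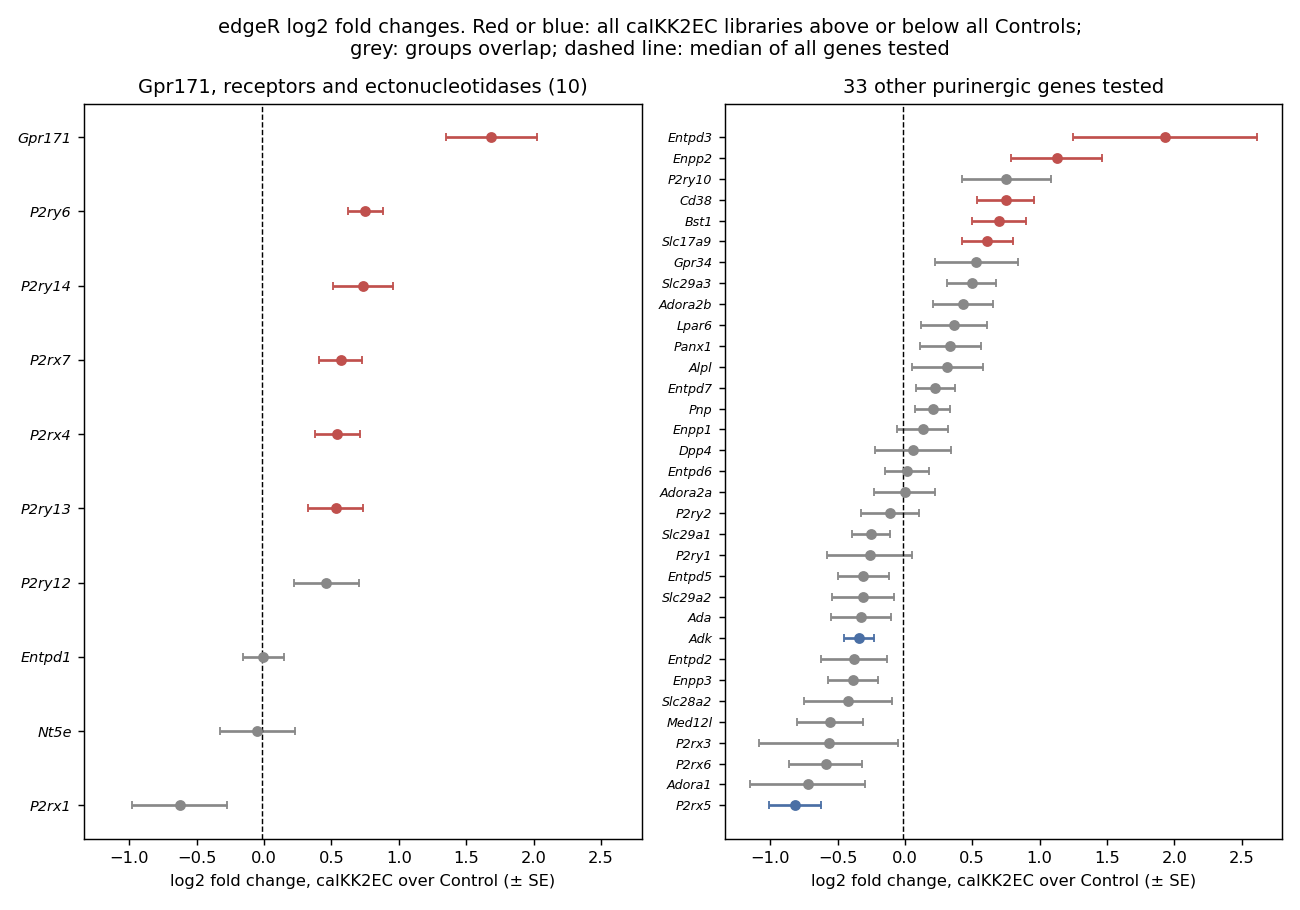
edgeR log2 fold change of caIKK2EC over Control ± SE for the 10 genes (left) and for the 33 other genes of the lists, Med12l included, that could be tested (right), coloured by whether the libraries of the groups overlap. The dashed line is the median of all genes tested, -0.02. The left panel has 6 genes without overlap, all higher in caIKK2EC, and the right panel has 5 higher and 2 lower.

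Macrophage markers were higher in the same libraries as P2ry6, P2rx4, P2rx7, P2ry13 and P2ry14. Of 8 macrophage markers, 8 had a positive log2 fold change (median 0.89), 7 did not overlap between the groups, DESeq2 called 7, and none was at 0. The sums of other lists also separated the groups. The 6 dendritic cell markers summed to 253 to 350 CPM in Control and 435 to 571 CPM in caIKK2EC, mostly from Itgax, and 3 of them lay above all Controls. The 4 neutrophil markers summed to 17.8 to 33.7 and 36.7 to 51.7 CPM, mostly from Csf3r. Of these 4, 1 lay above all Controls and 1, Retnlg, below. The 4 lymphatic endothelial markers, of which Ccl21a was at 0, summed to 67.2 to 91.3 and 93.1 to 164 CPM. Pdpn and Lyve1 made up nearly all of that sum, Prox1 overlapped, and 1 marker lay above all Controls. Set against the summed level of the macrophage markers, P2rx4 was at 5.39% to 5.85% in Control and at 4.24% to 4.91% in caIKK2EC, so the direction turned and all caIKK2EC libraries lay below all Controls. P2rx7 was at 1.34% to 1.65% of the macrophage sum in Control and at 1.08% to 1.39% in caIKK2EC. P2ry13 was at 0.175% to 0.238% and at 0.141% to 0.200%, and P2ry14 at 0.399% to 0.478% and at 0.342% to 0.425%. P2ry6 was at 1.76% to 3.86% in Control, a range set by Control 3, and at 2.02% to 2.29% in caIKK2EC. P2ry12 was at 0.165% to 0.216% in Control and at 0.1102% to 0.187% in caIKK2EC. Relative to this sum, none of these 6 receptors was higher in all caIKK2EC libraries than in all Controls. C1qa, C1qb and C1qc made up most of the macrophage sum in every library. Ratios to single markers were not computed, so the ratios here hold for this sum only. These ratios were chosen after the values were seen and have no test.

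Gpr171, known mainly from T cells and the nervous system, was set against T cell markers as well. The 10 markers summed to 91.8 to 187 CPM in Control and to 184 to 310.8 CPM in caIKK2EC. None was at 0, 7 had a positive log2 fold change, and DESeq2 called 2, both among Il7r, Cd4 and Cd28. Il7r and Cd4, which other cells of a plaque can also express, made up most of the sum. Gpr171 was at 1.31% to 2.30% of the sum of all 10 in Control and at 2.16% to 4.95% in caIKK2EC, with overlapping groups and a mean log2 difference of 0.83. The 7 markers left without Il7r, Cd4 and Cd28 are Cd3d, Cd3e, Cd3g, Cd2, Cd8a, Cd8b1 and Lck, a split made after the values were seen. They summed to 28.6, 16.3 and 7.25 CPM in Control 1 to 3 and to 14.8, 24.5, 12.1, 15.8 and 17.4 CPM in caIKK2EC 1 to 5, with means of 17.4 ± 10.7 (SD, n = 3) and 16.9 ± 4.67 CPM (SD, n = 5). Their median log2 fold change was 0.09, and DESeq2 called 0 of the 7. Gpr171 CPM divided by the sum of the 7 was 0.0699 to 0.291 in Control and 0.177 to 0.711 in caIKK2EC, a mean log2 difference of 1.50, again with overlapping groups. The size of the difference relative to T cell markers therefore depends on which markers are summed. Against the macrophage sum Gpr171 was at 0.0699% to 0.129% in Control and at 0.107% to 0.236% in caIKK2EC, with a mean log2 difference of 0.73 and overlapping groups.

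**Figure D4:**
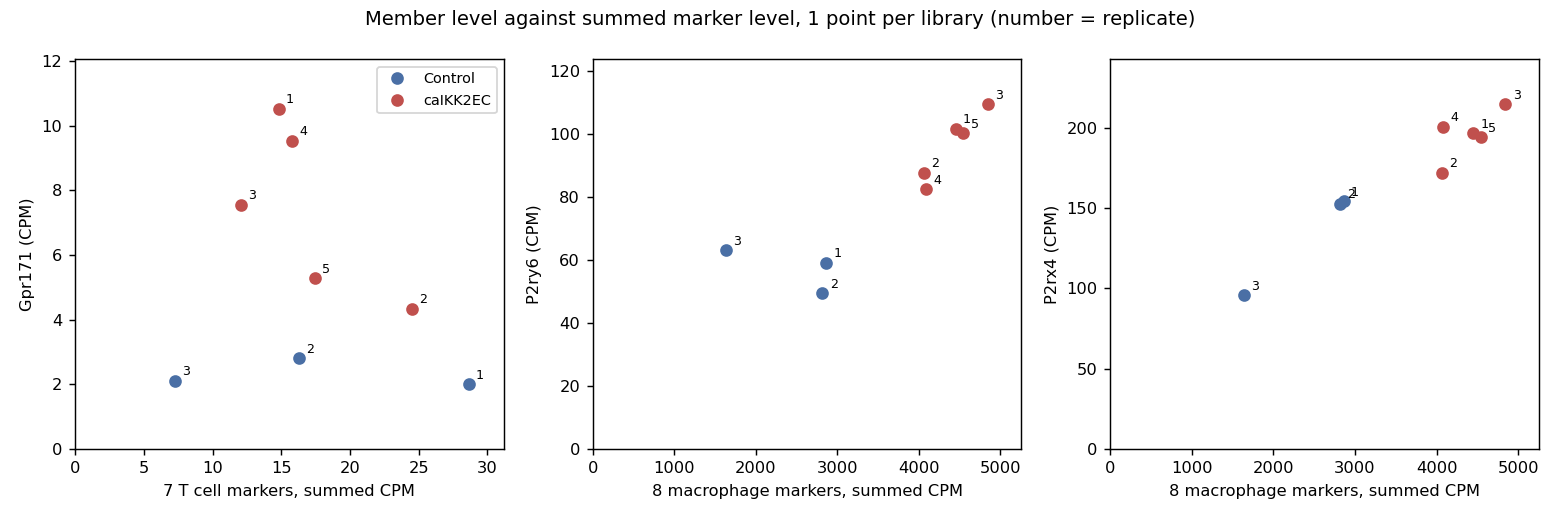
Level of Gpr171, P2ry6 and P2rx4 (CPM, vertical) against the summed CPM of T cell or macrophage markers (horizontal), 1 point per library labelled by replicate number, with axes from 0. The 7 T cell markers sum to 7.25 to 28.6 CPM in Control and to 12.1 to 24.5 CPM in caIKK2EC, a subset chosen after the values were seen. The full list of 10 sums to 91.8 to 187 CPM in Control and to 184 to 310.8 CPM in caIKK2EC. The macrophage sum separates the groups, at 1636 to 2861 CPM in Control and 4062 to 4845 CPM in caIKK2EC.

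P2rx1 was set against smooth muscle, where it is a channel of contractile cells. All 6 smooth muscle markers had a negative log2 fold change (median -0.75), and none was at 0. P2rx1 was at 0.0982% to 0.138% of their sum in Control and at 0.0946% to 0.186% in caIKK2EC, with a mean log2 difference of 0.13. Relative to platelet and megakaryocyte markers P2rx1 was at 65.7% to 137% in Control and at 29.3% to 92.7% in caIKK2EC, with overlapping groups and a mean log2 difference of -0.56. Entpd1, made by endothelium, smooth muscle and leukocytes, was at 0.785% to 1.12% of the smooth muscle sum in Control and at 1.13% to 2.04% in caIKK2EC, and at 12.5% to 30.8% and 12.9% to 17.1% of the sum of 6 endothelial markers. P2ry12 was compared with platelet and megakaryocyte markers, of which 5 of 7 could be tested, 1 with a positive log2 fold change, and Gp6 had 7 counts in all libraries together. Their sum was 29.0 to 38.0 CPM in Control and 24.2 to 36.7 CPM in caIKK2EC, and P2ry12 was at 11.0% to 16.3% and at 18.1% to 27.6% of it. Pf4 was the largest part of this sum in every library, while Ppbp and Gp9 were highest in Control 3, at 4.68 and 1.61 CPM. The ratios of P2rx1 and P2ry12 to this list therefore hold for this sum only. Against 6 markers of resident macrophages P2ry12 was at 1.65% to 2.30% in Control and at 1.50% to 2.38% in caIKK2EC. The part of cell composition in any of these differences was not tested.

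Variation between animals within a group, which the choice of genes did not use, was described by the deviations of log2 CPM from the group means. P2ry14, P2rx4, P2rx7 and Nt5e varied together over the 8 libraries, with a Pearson r of 0.96 between P2ry14 and P2rx4, 0.89 between P2rx4 and P2rx7 and 0.92 between Nt5e and P2rx4. Control 3, low in all 4, contributes to each of these. For Gpr171 the values ran from -0.62 with P2rx1 to 0.47 with P2ry14, with -0.38 for its neighbour P2ry12 and -0.10 for P2ry6. Among 12866 genes with a mean of at least 1 CPM, the 4 whose deviations were most like those of Gpr171 were Notch4 (r = 0.97), Kifc3 (0.95), Apln (0.95) and Chchd4 (0.95). For P2ry12 they were Twist2 (0.97), Medag (0.97), Slc27a3 (0.96) and Dcn (0.96), for P2ry6 Tmem192 (0.95), Smyd4 (0.94), Cript (0.94) and Esd (0.93), and for Nt5e Fkbp15 (0.99), Rbbp6 (0.99), Zfp26 (0.98) and Ttf1 (0.97). With 8 libraries and so many genes, the highest values are picked from a wide spread, and they are given as a description.

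**Figure D5:**
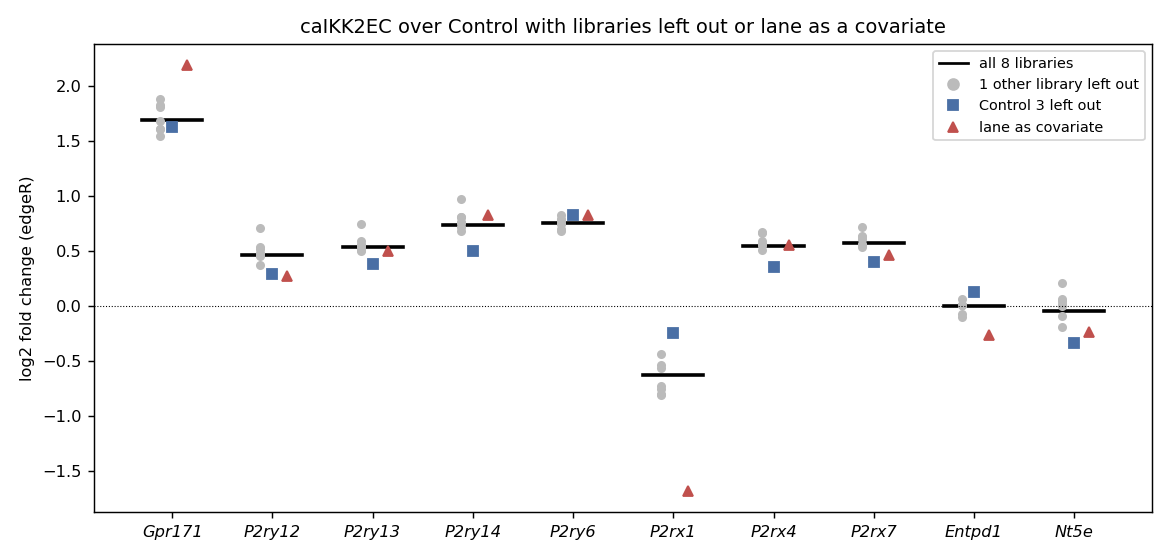
edgeR log2 fold change of caIKK2EC over Control for each gene with all libraries (bar), with 1 library left out (circles, and squares for Control 3) and with lane as a covariate (triangles). Gpr171 stays between 1.54 and 2.19 and P2ry6 between 0.68 and 0.83, while P2rx1 runs from -1.68 to -0.24 and Entpd1 and Nt5e change sign.

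The rest of the purinergic system was read from lists chosen by function. Of 44 other genes, among them Med12l and the ligand precursor gene Pcsk1n, 33 could be tested. edgeR called 0 at an adjusted p of 0.05, with 7 higher and 3 lower at an unadjusted p under 0.05, against 9.66% and 7.47% of all genes. DESeq2 called 4 higher and 1 lower, against 4.55% and 1.51% of all genes. Their median log2 fold change was 0.02, near the -0.02 of all genes, with 17 positive and 16 negative.

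Among the channels, P2rx5 was the only other P2X gene that DESeq2 called. It was at 33.5, 32.8 and 34.9 CPM in Control 1 to 3 and at 16.9, 28.6, 18.6, 16.7 and 15.1 CPM in caIKK2EC 1 to 5, so all caIKK2EC libraries lay below all Controls and caIKK2EC 2 lay closest to them. The log2 fold change was -0.81 (SE 0.19), lower in 5 of 5 libraries, with an adjusted p of 0.112 in edgeR and 0.00983 in DESeq2. P2rx6, a subunit that works mainly in mixed channels, was at 4.15 ± 0.612 and 2.76 ± 0.702 CPM (SD, n = 3 and 5), which missed the threshold (edgeR adjusted p = 0.296). P2rx2 had 0 counts in all 8 libraries.

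The P2Y and related receptors outside the cluster did not pass in either tool. P2ry2, the ATP and UTP receptor of endothelium and smooth muscle, was at 48.0 ± 14.2 CPM (SD, n = 3) and 44.4 ± 8.86 CPM (SD, n = 5), with a log2 fold change of -0.11 (SE 0.21). Lpar6, a lysophosphatidic acid receptor once counted as a P2Y receptor, was at 21.5 ± 8.13 and 27.7 ± 4.73 CPM, with a log2 fold change of 0.36 (SE 0.24). P2ry4, Gpr17 and Oxgr1 had 0 counts in all 8 libraries.

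Adenosine receptors did not pass either. Adora1 had a Control mean of 18.2 ± 6.31 CPM (SD, n = 3) and a caIKK2EC mean of 11.0 ± 6.56 CPM (SD, n = 5), with 4 of 5 caIKK2EC libraries below every Control and caIKK2EC 1, at 22.0 CPM, above all but Control 3 (edgeR adjusted p = 0.419). Adora2a, the receptor through which adenosine restrains leukocytes, was at 10.1 ± 2.20 and 10.1 ± 2.34 CPM, with a log2 fold change of 0.00 (SE 0.23).

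Nucleotide release and the remaining enzymes held the other calls. Slc17a9, the transporter that loads ATP into vesicles, was at 6.52, 5.99 and 4.31 CPM in Control 1 to 3 and at 9.25, 9.73, 7.94, 7.83 and 8.18 CPM in caIKK2EC 1 to 5, without overlap. Slc17a9 was higher by 0.61 on the log2 scale (SE 0.19), in 5 of 5 libraries, with an adjusted p of 0.167 in edgeR and 0.0350 in DESeq2. Panx1, the ATP-release channel pannexin 1, was at 11.2 ± 2.46 and 14.2 ± 3.10 CPM (SD, n = 3 and 5), short of the threshold (edgeR adjusted p = 0.479).

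Cd38, which breaks down NAD on the surface of leukocytes, was at 73.8, 88.3 and 48.3 CPM in Control 1 to 3 and at 129, 89.0, 144, 114 and 113 CPM in caIKK2EC 1 to 5. The lowest caIKK2EC library, caIKK2EC 2, lay just above Control 2. Its log2 fold change was 0.75 (SE 0.21), with an adjusted p of 0.144 in edgeR and 0.0215 in DESeq2. Enpp2, the secreted enzyme autotaxin that makes lysophosphatidic acid, was at 47.4, 43.5 and 51.0 CPM and at 88.7, 59.0, 63.3, 170 and 135 CPM, higher in 5 of 5 libraries with a wide spread among them. Enpp2 was higher by 1.13 on the log2 scale (SE 0.34), with an adjusted p of 0.159 in edgeR and 0.0191 in DESeq2. Bst1, a paralog of Cd38 named here because it completes the DESeq2 calls, lay 0.70 higher on the log2 scale (SE 0.20), in 5 of 5 libraries, with an adjusted p of 0.147 in edgeR and 0.0310 in DESeq2. DESeq2 called none of P2rx5, Slc17a9, Cd38, Enpp2 and Bst1 without Control 3, without caIKK2EC 4, with sex as a covariate or with the replicate block. With lane it called only Bst1. Control 3 is the only male, so the sex covariate repeats the fit without Control 3 and is not a separate check.

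Genes that take up or break down adenosine did not pass. Slc29a1, the nucleoside transporter ENT1, was at 198 ± 44.0 CPM (SD, n = 3) and 166 ± 9.26 CPM (SD, n = 5), a log2 difference of -0.25 (SE 0.14) with an adjusted p of 0.398 in edgeR. Slc29a3, a lysosomal nucleoside transporter of macrophages, was at 71.3 ± 13.5 and 101 ± 18.3 CPM, a log2 difference of 0.50 (SE 0.18) with an adjusted p of 0.211 in edgeR. Pcsk1n, the precursor of the peptide reported as a GPR171 ligand, was too low to test, with 0, 1 and 0 counts in Control 1 to 3 and 3, 2, 5, 14 and 8 counts in caIKK2EC 1 to 5.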

How the data were processed

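The authors deposited raw read counts per gene symbol for 8 libraries of 50-nt reads from a directional poly(A) kit, per the labels' protocols. Tools listed in the submitters' processing notes are STAR 2.7.0e, DESeq2 1.22.2 and FastQC 0.11.5, with the GRCm38 build. For the counting program, annotation and strand setting, no statement is given in the sources used here. Reads of Med12l and of the receptor genes on the other strand may therefore not have been told apart. The authors' deposited comparison table gives log2 fold changes with p-values, per the file headers, and was used to check names and the count of calls. Its regularized log2 values were not used.

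The main test was the quasi-likelihood test of edgeR 4.0.16 in R 4.3.3, with limma 3.58.1. Library sizes were scaled by TMM, low counts were removed by the default filter, leaving 14679 genes, and the robust model held only the group. Adjusted p-values are Benjamini-Hochberg values over these genes, with a threshold of 0.05. edgeR gives no SE. The SE printed here is the absolute log2 fold change divided by the square root of the test's F statistic. It therefore restates that statistic. DESeq2 1.42.0 was run as an alternative. A prior count of 2 was added for log2 CPM. Exon lengths come from GENCODE M21. The genes and lists were chosen with earlier results of these data known. Of each list without an edgeR call, the 2 genes with the highest CPM were named, and P2rx5, Slc17a9, Cd38, Enpp2 and Bst1 are also the DESeq2 calls. Both tools were tested on 1 data set simulated for this comparison with 200 changed genes and no effect of lane, sex or cell composition. There edgeR made 144 calls among 14513 genes, 9 of them false, and DESeq2 made 202 among 14679, 45 of them false. Of the 2-fold changes, edgeR found 49% and DESeq2 69%. The real data gave 0 against 869 calls, a gap that the simulation did not reproduce. A DESeq2 call that edgeR does not make is to be read with these false calls and missed changes in mind. Each library is 1 mouse. The deviations of same-numbered libraries had r = 0.400, 0.101 and 0.116 over 13519 genes for numbers 1, 2 and 3. No r of differently numbered libraries was set beside these, so they do not show a pairing by number. Control 1 and caIKK2EC 1, with the r of 0.400, also share lane 7, sex and age. The replicate number was also fitted as a block, although the labels state no shared litter or day. No 2 libraries agreed within sampling noise (chi-square per degree of freedom of 17.6 or more).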

Additional observations from a re-analysis of the deposited data

Results flagged for a closer look

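In 43 groups of 5 caIKK2EC values (the 10 genes and the 33 other tested purinergic genes), a library lay far from the other 4 in 3 genes. Chance gives about 1 in 20 groups, so 3 of 43 is near that rate and nothing is read from the number. P2rx5 was at 28.6 CPM in caIKK2EC 2, against 18.6 CPM in the nearest library. Lpar6 was at 36.0 CPM in caIKK2EC 1, against 26.6 CPM in the nearest. Dpp4, which encodes a surface peptidase that binds adenosine deaminase, was at 7.64 CPM in caIKK2EC 3, against 16.3 CPM in the nearest. Gpr171 and the 9 genes described with it had no such library.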

How the results depend on the processing

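edgeR called 0 genes in all, 0 of the 10 genes and 0 of the other purinergic genes, and likewise with DESeq2's size factors, without the filter on low counts, with lane or sex as a covariate and with the replicate block. With age as a covariate it called 661, 4 and 3, a term that among Controls sets only Control 3 apart, and DESeq2 called 869, 5 and 5. With 1 library left out, edgeR called 0 to 359 genes in all, 0 to 2 of the 10 and 0 to 1 of the others, and only the fit without caIKK2EC 2 was above 0. The settings below were chosen after seeing the data. DESeq2 called 3 of the 10 and 1 of the others with lane (P2rx1 lower among them), 2 and 0 with sex, and 2 and 0 with the replicate block. The sex term sets only Control 3 apart, so in both tools it repeats the fit without that library. The block changed no call in edgeR. Leaving out 1 library gave 2 to 5 of the 10 and 0 to 7 of the others in DESeq2, with 2 of the 10 without Control 3, caIKK2EC 3, 4 or 5. Groups did not overlap in 6 to 7 of the 10 genes with 1 library left out, and in 5 without a scaling factor. Of 150 log2 fold changes of the 10 genes under the alternatives, 136 kept their sign, and the other 14 were of Entpd1 and Nt5e. The cause of these changes was not tested. Nothing is read from the counts of calls among the 10 genes, which were chosen with this contrast known. The Control level of Gpr171 rests on 46 to 76 counts per library, which limits its precision.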

Other observations

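Entpd3, an ectonucleotidase of neurons and epithelium, had 4, 4 and 1 counts in Control 1 to 3 and 8, 11, 4, 22 and 17 counts in caIKK2EC 1 to 5. Its log2 fold change of 1.93 (SE 0.68) was the highest among the 33 other purinergic genes and had an edgeR adjusted p of 0.203. Adk, the kinase that returns adenosine to AMP, was at 61.9 ± 4.31 CPM (SD, n = 3) and 48.8 ± 5.17 CPM (SD, n = 5), lower in 5 of 5 libraries without overlap, with an edgeR adjusted p of 0.179. Both were named after their values were seen.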
